A study of Homo sapiens with 24 samples.

Results

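The response of normoxic HCT116 cells carrying ESR2 to 10 nM 17β-estradiol was measured on 6 of the 24 Affymetrix arrays of the series, chosen by their labels: 3 arrays with estradiol and 3 without. HCT116 is an established human colon cancer line. The ESR2 cells express full-length estrogen receptor beta with a HaloTag at its amino terminus, delivered with a lentiviral vector that also carries GFP and puromycin resistance. They are a selected pool in which most cells expressed GFP, and a population with an empty vector was not analysed here. 2 more pairs of groups serve below as comparisons, each with 3 arrays without and 3 with 10 nM estradiol: normoxic parental HCT116 cells, and ESR2 cells kept in hypoxia. Per the labels, cells were in phenol-red-free medium with charcoal-stripped serum before and during estradiol, which takes away the weak estrogens of ordinary medium. The sources used here give no treatment time and no medium for the untreated cells. A part of the medium in the results was not tested.

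Estradiol enters cells and binds estrogen receptors alpha and beta, which are encoded by ESR1 and ESR2. The bound receptor forms a dimer, recruits coactivators such as NCOA1, and acts either at estrogen response elements in DNA or through other DNA-bound factors such as AP-1. In breast cancer cells, where alpha predominates, estradiol raises genes such as GREB1, TFF1 and PGR. The colon epithelium expresses mainly the beta receptor, which is often low in colon tumours.

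The labels number the arrays within a group and do not say that they came from separate cultures, so each p-value reflects the spread among the arrays alone, and that spread can be technical. With 3 arrays to a group, precision is limited by their number. Over all probe sets, the correlation was 0.9972 to 0.9974 between arrays without estradiol, 0.9978 to 0.9982 between arrays with it, and 0.9968 to 0.9983 across the 2 groups. A 3′ minus 5′ index of the control probe sets, which is high where the labelled RNA is short, was 2.64 ± 0.29 without estradiol and 2.64 ± 0.23 with it (log2, SD, n = 3 each). Elsewhere in the series it stood apart on replicate 2 of untreated normoxic parental cells, at 4.09, and in all arrays of hypoxic ESR2 cells with estradiol, at 3.63 ± 0.28 (SD, n = 3) against 2.06 ± 0.14 (SD, n = 3) without. As for cell identity, the 10 markers of colon epithelium had a mean level of 7.27 to 7.33 without and 7.28 to 7.34 with estradiol, led by EPCAM and KRT19. VIL1 and LGALS4 were dim, with mean signals over the series of 3.09 and 3.64. The mean of 7 leukocyte markers was 3.35 to 3.41 without and 3.42 to 3.46 with estradiol, that of 8 fibroblast markers 3 to 3.07 and 3.03 to 3.09, and that of 6 markers of the kidney line used for packaging 3.55 to 3.71 and 3.53 to 3.66. The leukocyte means did not overlap, and LYZ, the lysozyme gene, differed by 0.24 (SE 0.12). The means of these other cell types are near the floor of the array, and their part in the results was not tested.

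Differences in gene expression with estradiol were small in these cells. SGK1, a kinase induced by steroid hormones, PKIB, an inhibitor of protein kinase A, and CST1, a secreted protease inhibitor, were the only genes with a difference of 1.5-fold or more, each higher with estradiol. With limma, 0 of 18239 genes passed a Benjamini-Hochberg adjusted p of 0.05, which is 0% of those tested. The smallest adjusted p, that of CST1, was 0.0529. At an unadjusted p under 0.05, 376 genes (2.06%) were higher and 605 (3.32%) lower, together 5.38% of genes. Groups did not overlap for 915 genes (5.02%) that were higher on all 3 arrays with estradiol, and for 1283 (7.03%) that were lower. The share of higher genes among those with an unadjusted p under 0.05 was 38.3%, but 55.6% when each array was centred on its median, so that the balance of directions depends on the scaling. Of 19 alternatives, 3 of them chosen after seeing the data, 8 kept the count of 0 and 11 did not. Array weights gave the highest count, 5. The count was 4 without the hypoxic ESR2 arrays with estradiol and parental replicate 2, a fit chosen after seeing the data. These 4 genes were SGK1 and CST1 (adjusted p = 0.0122 each), SNAI2 (adjusted p = 0.0198) and, lower with estradiol, AVPR1A (adjusted p = 0.0355). In 2 other fits chosen after seeing the data the count was 0, with a smallest limma adjusted p of 0.0548 when parental replicate 2 alone was left out and of 0.0909 over the 12 normoxic arrays only.

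The intervals bounded the difference of each gene, taken 1 at a time and at its brightest probe set. The median absolute difference of a gene was 0.0603 on the log2 scale, with a median SE of 0.09, and 72.1% of genes differed by less than 0.1. For all 18239 genes the 95% interval of limma lay within 2-fold in both directions, and for 18132 (99.4%) it lay within 1.5-fold. RMA compresses the differences of dim genes, so these bounds are on the scale of the deposited signal. They do not cover the other probe sets of a gene, such as the SGK1 probe set with a difference of 0.90 (SE 0.13). With the genes in 3 classes of equal size by mean signal, those with an unadjusted p under 0.05 were 86 higher and 256 lower in the dimmest class, 160 and 255 in the middle one, and 130 and 94 in the brightest.

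**Figure D1:**
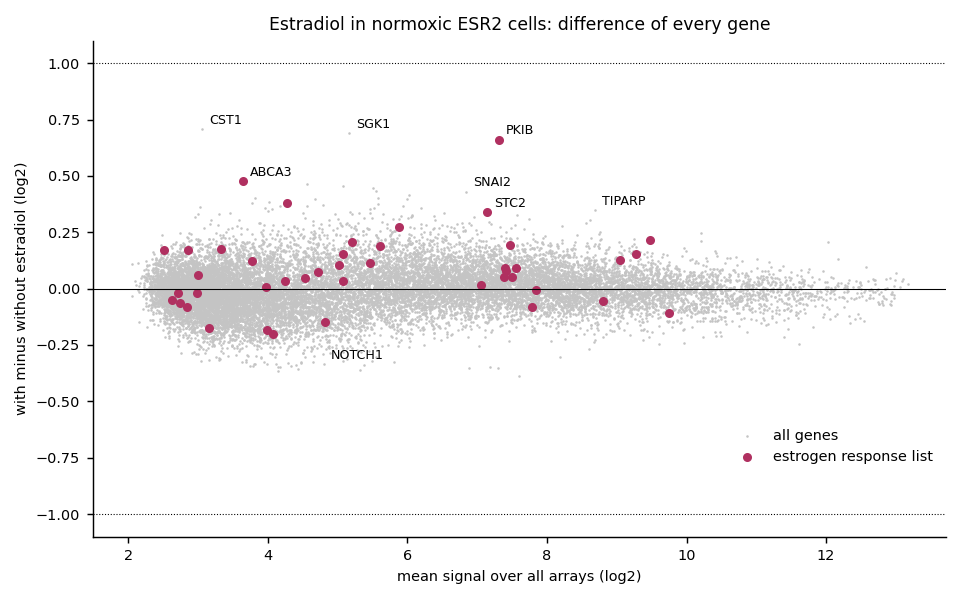
Difference of every gene between normoxic ESR2 cells with and without estradiol (log2, vertical axis) against its mean signal over all 24 arrays (log2, horizontal axis); red points are the 43 measured genes of the estrogen response list, and dotted lines mark 2-fold. The points lie between -0.387 and 0.708, with SGK1, PKIB and CST1 at the top.

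As no gene passed the threshold, the 20 genes with the smallest p are described, chosen after their values were seen. Of these, 12 were higher and 8 lower with estradiol. The groups did not overlap in any of them, which a choice by smallest p on these arrays favours, so it is no separate result. Among all genes, 5.02% did not overlap and were higher, and 7.03% did not overlap and were lower. The differences of the higher genes were 1.25-fold to 1.63-fold, and those of the lower genes 1.25-fold to 1.29-fold. The mean signals of the 8 lower genes lay between 3.82 and 5.32 (log2), in the lower part of the range of the array, and those of the 12 higher genes between 3.02 and 8.69.

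SGK1 encodes serum- and glucocorticoid-induced kinase 1, which regulates ion channels and cell survival and is a classic target of steroid receptors. Its signal was 5.09, 5.18 and 5.10 on the arrays without estradiol and 5.73, 5.67 and 6.04 on those with it (log2). Every array with estradiol was thus above every array without. The difference was 0.69 (SE 0.12, 95% interval 0.43 to 0.95, limma adjusted p = 0.102). All 4 probe sets of SGK1 were higher with estradiol, by 0.25 to 0.90. When every probe set was tested on its own, the one with the difference of 0.90 (SE 0.13) passed at adjusted p = 0.0479, and the mean of the 4 passed in a fit of gene means (0.66, SE 0.09, adjusted p = 0.00443).

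PKIB encodes a small inhibitor of the catalytic subunit of protein kinase A and is a known estrogen-responsive gene in breast cancer cells. Its signal was 6.87, 6.82 and 6.84 without estradiol and 7.45, 7.51 and 7.54 with it. The arrays of a group lay very close together, with SDs of 0.026 and 0.046 (n = 3 each). The difference was 0.66 (SE 0.16, 95% interval 0.34 to 0.98, adjusted p = 0.42 with limma over all groups). The SE comes from the spread of PKIB in all 8 groups, which was wider than in these; with only the groups compared in the fit, it was the single gene called (0.66, SE 0.07, adjusted p = 0.00423). All 5 probe sets of PKIB were higher, by 0.60 to 0.76.

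Promoters of the 20 genes were searched for the estrogen response element, GGTCANNNTGACC, and for its single arm, GGTCA or TGACC, in the 250 bases before each start site in RefSeq's annotation of GRCh38.p14. 15 of the 20 genes, with 26 start sites, were in the table used. No start held the full element, which 0.0399% of all 35116 promoters of that length hold. At least 1 arm was present at 8 of the 26 starts (30.8%), near the 32.6% of all promoters. The promoters of PKIB and SGK1, which had the largest differences borne by several probe sets, are shown at the most upstream of their 3 starts; none of these 3 starts held an arm in either gene. The promoter of TGFA, which codes for an EGF receptor ligand and had an arm at its most upstream start, is shown beside them with that arm in capitals, 190 bases before the start. All are given 5′ to 3′ on the strand of the gene, PKIB at chr6:122471671-122471920 on the plus strand, SGK1 at chr6:134318113-134318362 on the minus strand and TGFA at chr2:70553827-70554076 on the minus strand. These matches describe the letters in the windows and not binding.
PKIB: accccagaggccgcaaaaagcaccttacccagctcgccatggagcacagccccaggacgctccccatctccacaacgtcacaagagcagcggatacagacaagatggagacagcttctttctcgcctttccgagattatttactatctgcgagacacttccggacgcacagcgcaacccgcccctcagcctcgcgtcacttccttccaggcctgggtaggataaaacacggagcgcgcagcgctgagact
SGK1: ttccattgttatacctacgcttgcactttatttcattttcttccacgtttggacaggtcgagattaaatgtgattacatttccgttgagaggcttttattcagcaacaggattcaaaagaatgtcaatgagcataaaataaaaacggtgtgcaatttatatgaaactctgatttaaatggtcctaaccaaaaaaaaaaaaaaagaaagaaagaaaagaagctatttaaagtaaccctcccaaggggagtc
TGFA: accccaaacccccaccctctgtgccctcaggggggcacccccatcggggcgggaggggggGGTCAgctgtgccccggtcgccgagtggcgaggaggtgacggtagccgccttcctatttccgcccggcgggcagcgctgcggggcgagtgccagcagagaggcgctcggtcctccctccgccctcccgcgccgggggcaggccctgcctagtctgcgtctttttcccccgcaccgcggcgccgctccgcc

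CST1 encodes cystatin SN, a secreted inhibitor of cysteine proteases. It was dim throughout, at 3.06, 2.78 and 3.24 without estradiol and 3.52, 3.74 and 3.93 with it. The difference was 0.71 (SE 0.11, 95% interval 0.47 to 0.94, limma adjusted p = 0.0529), and its second probe set differed by 0.36 in the same direction. When each of the 6 arrays was left out in turn, it passed without untreated replicate 3 (adjusted p = 0.0186) and without treated replicate 1 (adjusted p = 0.0205). In the other 4 fits limma gave it adjusted p-values of 0.224 to 0.358, with differences of 0.59 to 0.72.

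SNAI2 encodes the transcription factor SLUG, a repressor of E-cadherin. Its signal was 5.80, 5.95 and 6.02 without estradiol and 6.32, 6.45 and 6.29 with it, a difference of 0.43 (SE 0.08, limma adjusted p = 0.102). CDH1, the E-cadherin gene itself, differed by 0.06 (SE 0.13, 95% interval -0.20 to 0.32). Among the 22 measured genes of the epithelial-mesenchymal list, ZEB1, another repressor of E-cadherin, came next with 0.21 (SE 0.10, adjusted p = 0.927), and the median of the list was 0.00.

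TIPARP, an ADP-ribosyltransferase that represses the aryl hydrocarbon receptor and is known as an estrogen target, had 8.20, 8.13 and 8.08 without estradiol and 8.42, 8.47 and 8.56 with it. It was the brightest of the 20 genes, and its difference was 0.35 (SE 0.08, limma adjusted p = 0.425). TGFA had 6.44, 6.23 and 6.25 without estradiol and 6.69, 6.57 and 6.63 with it, a difference of 0.32 (SE 0.08, limma adjusted p = 0.421) carried by its brightest probe set, the 3 others differing by 0.02 to 0.15. STC2, a secreted glycoprotein of calcium and phosphate balance, had 6.0, 5.85 and 5.82 without estradiol and 6.27, 6.30 and 6.12 with it. Its difference of 0.34 (SE 0.08, limma adjusted p = 0.42) was seen in all 3 probe sets (0.28 to 0.34). NRP1, a coreceptor of VEGF and semaphorins, differed by 0.33 (SE 0.08) and TLR4, the receptor of bacterial lipopolysaccharide, by 0.33 (SE 0.08), the latter at a dim signal. C3, the central complement component, was dimmer still, with 2.97, 2.85 and 2.89 against 3.12, 3.40 and 3.28 (0.36, SE 0.08, limma adjusted p = 0.341). CCDC18, a coiled-coil protein, had 4.22, 4.21 and 3.8 against 4.44, 4.51 and 4.72 (0.48, SE 0.10, limma adjusted p = 0.23), but its second probe set differed by 0.06. Its difference was 0.34 without untreated replicate 3.

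Of the genes lower with estradiol, NOTCH1, a receptor that directs cell fate in the intestinal crypt, had the smallest p. It had 5.05, 4.98 and 5.03 without estradiol and 4.67, 4.66 and 4.73 with it, a difference of -0.34 (SE 0.06, limma adjusted p = 0.102). Its 2 other probe sets differed by 0.00 and -0.03, so the mean of its probe sets differed by only -0.12. AVPR1A, a vasopressin receptor, had 4.25, 4.37 and 4.24 without estradiol and 3.93, 3.95 and 3.88 with it (-0.36, SE 0.09, limma adjusted p = 0.42). Its 4 probe sets ran from -0.36 to 0.05. SLC2A11, a sugar transporter, was likewise split, with 4 of 6 probe sets lower. The other 5, the olfactory receptor OR7G1, CMTM5, the sugar transporter SLC5A10, the noncoding TMEM132E-DT and the adhesion receptor ADGRD2, differed by -0.36 to -0.32. The other probe sets of CMTM5 differed by -0.08 to 0.03, and the second one of TMEM132E-DT by 0.01. Among the genes with several probe sets, PKIB, SGK1 and STC2 thus had differences of like size in most of their probe sets. NOTCH1, AVPR1A, SLC2A11, CMTM5 and TMEM132E-DT did not. Several of the higher genes also rested on their brightest probe set. Beside 0.33 for NRP1 stood -0.03 to 0.11 in its 5 others, beside 0.33 for TLR4 stood 0.10 and -0.03, and beside 0.35 for TIPARP stood 0.10.

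**Figure D2:**
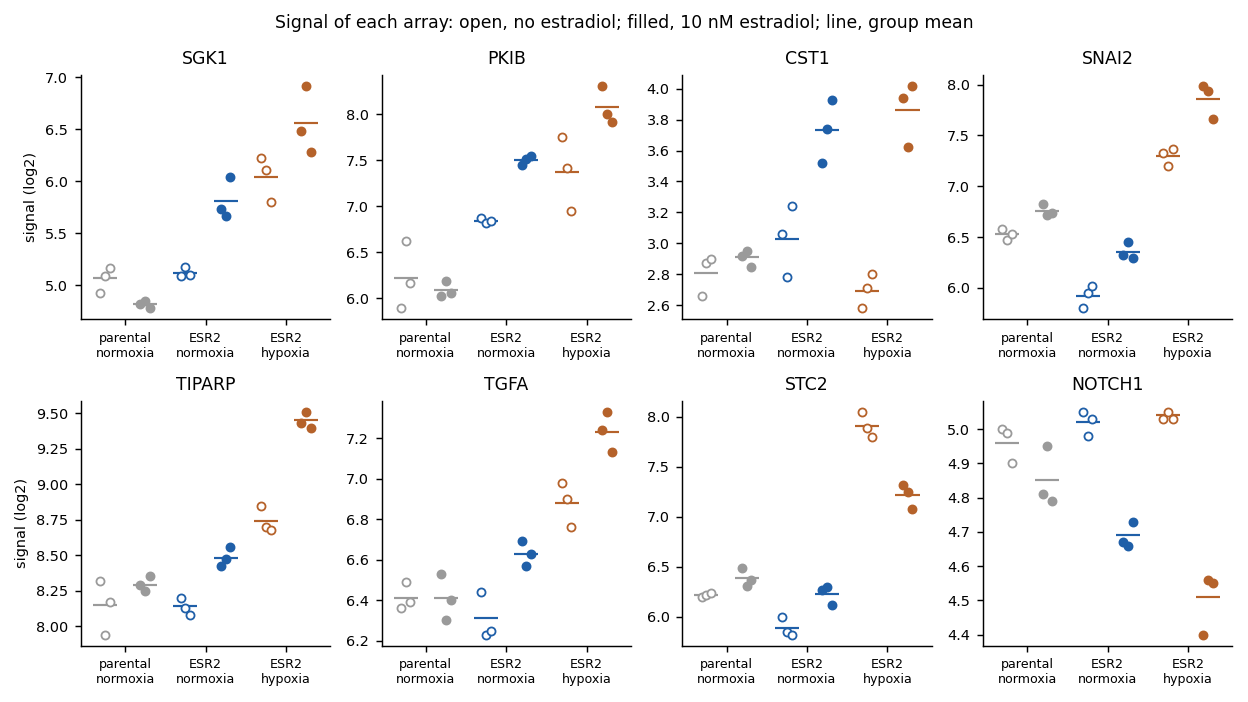
Signal (log2) of 8 of the genes on every array of normoxic parental, normoxic ESR2 and hypoxic ESR2 cells; open points are arrays without estradiol, filled points arrays with 10 nM estradiol, and lines group means. In normoxic ESR2 cells (blue) the filled and open points of each gene do not overlap, which their choice by smallest p favours. STC2 goes the other way in hypoxia.

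**Figure D3:**
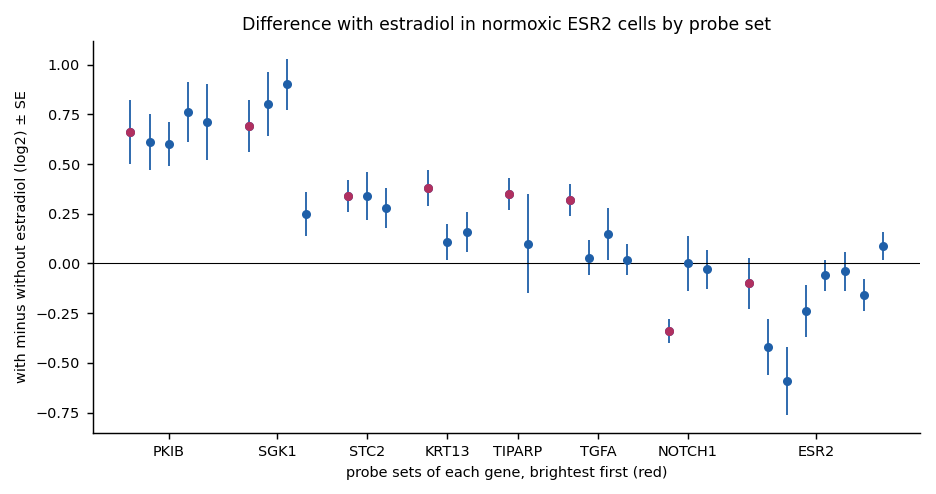
Difference with estradiol in normoxic ESR2 cells (log2, with SE) for each probe set of 8 genes, ordered from the brightest (red) to the dimmest. The 5 probe sets of PKIB lie between 0.60 and 0.76, while 2 of the 3 for NOTCH1 lie at 0.00 and -0.03.

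The receptors themselves were read next. The brightest probe set of ESR2 had 4.89, 4.03 and 4.63 without estradiol and 4.48, 4.35 and 4.41 with it, against 3.28 to 3.56 on the normoxic parental arrays, which bears out the labels. The difference with estradiol was -0.10 (SE 0.13, 95% interval -0.38 to 0.17). 3 other probe sets that were higher in ESR2 than in parental cells, by 0.93 to 1.36, differed with estradiol by -0.42 (SE 0.14), -0.59 (SE 0.17) and -0.24 (SE 0.13). None of them passed when every probe set was tested (adjusted p of 0.919 or more), and the untreated arrays varied widely, with SDs of 0.41 to 0.48 (n = 3). The rest of the 8 ESR2 probe sets did not follow the labels, with differences between untreated ESR2 and parental cells of only -0.11 to 0.09. ESR1 stayed dim, at 3.93, 4.02 and 3.85 without estradiol and 4.0, 3.90 and 4.06 with it, as did PGR, the progesterone receptor, which differed by 0.06 (SE 0.07). For scale, 18.6% of genes passed between untreated ESR2 and parental cells in normoxia.

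Of the 16 measured receptors, coactivators and chaperones, 0 passed and the median difference was 0.04. NCOA1, a coactivator of nuclear receptors, had 6.16, 6.13 and 5.71 without estradiol and 6.12, 6.36 and 6.49 with it, so the groups overlapped (0.32, SE 0.14, adjusted p = 0.915). NRIP1, a ligand-dependent corepressor that estradiol raises in breast cancer cells, differed by 0.17 (SE 0.08, adjusted p = 0.927) at a dim signal of 2.38 to 2.67. GPER1, the membrane estrogen receptor, was the only one with groups that did not overlap, and it was lower (-0.19, SE 0.10). That is 6.25% of the 16, beside 7.03% of all genes. FOXA1, which opens chromatin for estrogen receptors, differed by 0.16 (SE 0.13), and GATA3 by 0.08 (SE 0.08). The cochaperones FKBP4 and PTGES3 differed by 0.07 and -0.11, and HSP90AA1 by 0.00.

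The estrogen response list, 43 measured of 47 genes known from breast cancer cells and chosen with earlier results of these arrays in view, had the highest median of the 37 lists, 0.08, beside -0.006 for all genes. Of its members 0 passed, 6 (14%) had an unadjusted p under 0.05 and were higher, beside 2.06% of all genes, and 0 were lower, beside 3.32%. The groups did not overlap for 9 members that were higher (20.9%, beside 5.02%) and for 2 that were lower (4.65%, beside 7.03%). The 6 were STC2, PKIB, ABCA3, KRT13, TPD52L1 and NRIP1. With all arrays centred on their medians, the 6 became 9, beside 532 higher genes among all 18239 in that fit. The main fit had 376 such genes. Without the hypoxic ESR2 arrays with estradiol and parental replicate 2 the 6 became 13, beside 579 higher genes among all 18239 in that fit. The median of the list was 0.02 when the probe sets of each gene were averaged, and 0.03 without untreated replicate 2.

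ABCA3, a lipid transporter, had 3.68, 3.49 and 3.59 without estradiol and 3.94, 4.16 and 4.09 with it (0.48, SE 0.13, limma adjusted p = 0.549). Its 2 other probe sets differed by -0.02 and 0.07, and the mean of its probe sets by 0.17. KRT13, a keratin of stratified epithelia, had 4.19, 4.26 and 4.30 against 4.57, 4.67 and 4.65 (0.38, SE 0.09, limma adjusted p = 0.42), with 0.11 and 0.16 in its 2 other probe sets. TPD52L1, a coiled-coil protein of vesicle traffic, had 9.47, 9.25 and 9.41 against 9.61, 9.57 and 9.59, a difference of only 0.21 (SE 0.07) at a bright signal. In each of these the arrays with estradiol lay above those without. GREB1, a coactivator of the alpha receptor, had 5.98, 5.77 and 5.95 against 6.09, 6.08 and 6.35 (0.28, SE 0.14, adjusted p = 0.932), and its 2 dim probe sets differed by 0.01 and -0.05.

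Other standard estrogen targets differed little. TFF1, a trefoil peptide of mucosal repair, differed by 0.12 (SE 0.10, 95% interval -0.08 to 0.32), CTSD, the lysosomal protease cathepsin D, by 0.11 (SE 0.10), and XBP1, a factor of the unfolded protein response, by 0.09 (SE 0.10). CCND1, cyclin D1, differed by -0.11 (SE 0.13, 95% interval -0.37 to 0.16). MYC had 10.80, 10.68 and 10.71 without estradiol and 10.69, 10.62 and 10.66 with it (-0.07, SE 0.06, 95% interval -0.21 to 0.06). For these 5 genes the groups overlapped, and the intervals exclude a 1.5-fold difference in either direction.

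Targets of other steroid, vitamin D and retinoid receptors were mixed, with 0 of 19 passing and a median of -0.03. Beside SGK1, DHRS3, which reduces retinaldehyde and is raised by retinoic acid, had 3.8, 3.88 and 3.86 without estradiol and 4.27, 4.26 and 4.41 with it (0.47, SE 0.13, limma adjusted p = 0.657). CYP26A1, which breaks down retinoic acid, had 3.99, 3.77 and 4.05 without and 3.74, 3.69 and 3.39 with estradiol (-0.33, SE 0.11, limma adjusted p = 0.796). LRAT, which esterifies retinol, was lower as well (-0.30, SE 0.08, limma adjusted p = 0.549) at a dim signal. The retinoid enzymes thus had differences of both signs. GLUL, glutamine synthetase, differed by -0.14 (SE 0.06). Of the 8 aryl hydrocarbon receptor targets, where TIPARP led, CYP1A1 differed by 0.13 (SE 0.11) and CYP1B1, which also hydroxylates estradiol, by 0.21 (SE 0.14).

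Cholesterol synthesis had the lowest median of the lists, -0.09, with 18 of 20 members at or below 0. Of these 20 genes 0 passed, 3 (15%, beside 3.32%) had an unadjusted p under 0.05, all lower, and the groups of 5 did not overlap, also all lower (25.0%, beside 7.03%). Heat shock had a larger share on that last measure, 5 of 18 genes lower (27.8%) and 1 higher. Its median was -0.05, with 0 genes at an unadjusted p under 0.05. INSIG1, a sterol sensor that retains SREBP, had 9.89, 9.76 and 9.69 without estradiol and 9.45, 9.48 and 9.70 with it (-0.24, SE 0.08, limma adjusted p = 0.776). CYP51A1, lanosterol demethylase, had 10.76, 10.80 and 10.71 against 10.61, 10.50 and 10.53 (-0.21, SE 0.08, limma adjusted p = 0.868). MSMO1, a sterol oxidase, differed by -0.17 (SE 0.06) and HMGCS1, which makes hydroxymethylglutaryl-CoA, by -0.18 (SE 0.10). In fatty acid synthesis ACLY, ATP-citrate lyase, differed by -0.14 (SE 0.06), and the median of the list was -0.01.

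Among stress and metabolic genes, DDIT3, the proapoptotic factor CHOP, differed by 0.35 (SE 0.12) with groups that overlapped, and HSPA5, the main chaperone of the endoplasmic reticulum, by -0.24 (SE 0.10). AKR1B10, an aldo-keto reductase driven by NRF2, had 5.94, 5.98 and 6.14 without estradiol and 6.31, 6.56 and 6.49 with it (0.43, SE 0.14, limma adjusted p = 0.748). IGFBP6, which binds IGF-II, had 5.52, 5.30 and 5.53 against 5.69, 5.94 and 5.68 (0.32, SE 0.09, limma adjusted p = 0.617). HIF1A differed by 0.04 (SE 0.09, 95% interval -0.15 to 0.23) and LDHA, lactate dehydrogenase A, by -0.14 (SE 0.06), and the HIF target list had a median of 0.01. In the 19 genes of IGF and insulin signalling, which had a median of 0.04, the groups of 4 did not overlap and were higher (21.1%, beside 5.02%), PDK4, a kinase that shuts pyruvate dehydrogenase, by 0.22 and FOXO1, a factor restrained by insulin, by 0.22. CXCL8, the chemokine interleukin-8, differed by 0.20 (SE 0.10), and DKK4, a Wnt antagonist and target, by -0.31 (SE 0.11) at a dim signal.

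Proliferation genes showed small differences. Of 42 DNA replication genes 0 passed, 1 had an unadjusted p under 0.05 (MCM5, a helicase subunit, -0.26, SE 0.12), and the median was -0.04. The groups of 5 of the 42 did not overlap, all lower (11.9%, beside 7.03%), among them MCM4, another helicase subunit (-0.16), and RRM2, a ribonucleotide reductase subunit (-0.09). The median of 33 mitosis genes was -0.01 with 0 genes at an unadjusted p under 0.05 in either direction. Among 30 immediate early genes, the first responders to growth signals, 5 likewise did not overlap and were lower (16.7%, beside 7.03%), JUN with -0.14 and KLF6 with -0.16, and the list median was -0.01. Over all 37 lists, which share some genes, the medians ran from -0.09 to 0.08, and 0 lists held a gene that passed.

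**Figure D4:**
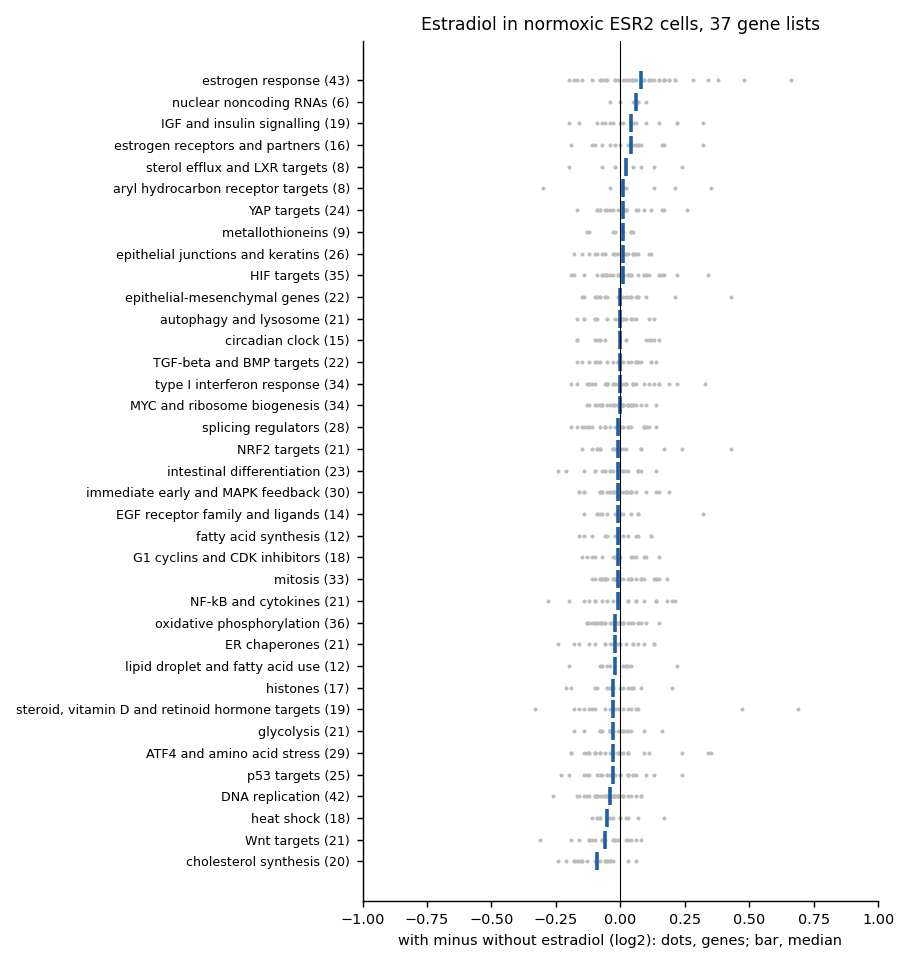
Difference with estradiol in normoxic ESR2 cells (log2) for each measured gene of 37 lists (grey dots) and the median of each list (blue bars), with the number of genes in parentheses. The medians run from -0.09 in cholesterol synthesis to 0.08 in estrogen response.

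The estradiol difference was compared with that of normoxic parental cells, where 2 of 18239 genes (0.011%) passed, both lower. At an unadjusted limma p under 0.05 there were 2524 genes (13.8%) in parental cells, beside 5.38% in ESR2 cells. The median absolute difference was 0.0804 in parental and 0.0603 in ESR2 cells. Untreated parental replicate 2 has the high index of 4.09, and its part in the parental count was not tested. The difference between the 2 differences was tested as an interaction in limma, and 0 genes (0%) passed; the smallest adjusted p was 0.215, and 1230 genes had an unadjusted p under 0.05, of which 57.0% had a positive interaction. That balance turned with the processing: the share was 75.1% with arrays centred on their medians, but 42.4% without parental replicate 2, 44.8% without untreated ESR2 replicate 2 and 39.2% with the 3′ minus 5′ index as a covariate. That smallest p was of SGK1, whose signal in parental cells was 4.93, 5.09 and 5.17 without and 4.82, 4.85 and 4.78 with estradiol (-0.25). Its interaction was 0.94 (SE 0.18), and it was 0.92 (SE 0.19, adjusted p = 0.335) without parental replicate 2. In the fit of gene means the interaction of SGK1 passed (0.83, SE 0.13, adjusted p = 0.0248), and so it did when the hypoxic ESR2 arrays with estradiol were left out (0.94, SE 0.14, adjusted p = 0.0297), an alternative chosen after seeing the data. With parental replicate 2 left out as well, 0 genes passed, and the smallest adjusted p in limma was 0.0736.

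PKIB had 5.89, 6.62 and 6.16 in untreated parental cells and 6.02, 6.19 and 6.06 with estradiol (-0.13). Its interaction was 0.80 (SE 0.22, limma adjusted p = 0.672), and 0.60 (SE 0.20) without parental replicate 2, the array with 6.62. SNAI2 and NRP1 were higher with estradiol in parental cells too, by 0.24 and 0.28, with interactions of 0.19 (SE 0.11) and 0.05 (SE 0.12). The other genes among the 20 differed by -0.25 to 0.17 in parental cells. The median of the estrogen response list in parental cells was -0.01. A dependence of these differences on ESR2 was therefore not shown over all genes at this number of arrays, and the interval of the interaction lay within 2-fold for 18103 genes (99.3%).

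The same 10 nM estradiol in hypoxic ESR2 cells gave a far wider separation, with 6459 genes (35.4%) called higher and 3935 (21.6%) called lower. The interaction with oxygen passed for 7991 genes (43.8%), 3354 higher and 4637 lower in normoxia relative to hypoxia. The hypoxic estradiol group is the one with the high 3′ minus 5′ index (3.63 against 2.06), all 3 arrays of it; its part in these counts was not tested beyond a fit with the index as a covariate, where 5839 genes passed, 3239 higher and 2600 lower. In normoxic ESR2 cells the mean index was 2.64 in both groups.

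Of the 12 genes higher with estradiol in normoxia, 9 were called higher and 1 lower in hypoxic ESR2 cells, beside 35.4% and 21.6% of all genes. SGK1 rose there by 0.52 (limma adjusted p = 0.00125), PKIB by 0.71 (adjusted p = 0.000584), CST1 by 1.17 (adjusted p = 1.11e-08), SNAI2 by 0.56 (adjusted p = 3.78e-06) and TIPARP by 0.70 (adjusted p = 2.22e-07). The interaction did not pass for SGK1 (0.17) or PKIB (-0.05), and it passed for CST1 (-0.46, adjusted p = 0.0253) and TIPARP (-0.36, adjusted p = 0.0184), with the larger difference in hypoxia. Of the 8 genes lower in normoxia, only NOTCH1 was called lower in hypoxia (-0.53, limma adjusted p = 2.15e-07), while 6 were called higher. Calls of higher in hypoxia were thus common in both directions. Among genes with an unadjusted limma p under 0.05 in normoxia, they were 43.4% of the higher and 47.9% of the lower genes. Over all genes the differences in normoxia and hypoxia had a correlation of -0.0083.

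Other estrogen-responsive genes went the other way. STC2 had 8.05, 7.89 and 7.80 in hypoxic ESR2 cells without estradiol and 7.32, 7.25 and 7.08 with it, a fall of 0.70 where normoxia gave 0.34 (interaction 1.04, limma adjusted p = 9.51e-08). ABCA3 fell by 0.89 in hypoxia (interaction 1.36, adjusted p = 1.90e-06), and GREB1 fell by 1.35 (interaction 1.62, adjusted p = 8.32e-07). The directions of these 3 genes in hypoxic cells are measured on the arrays with the high index. So are the hypoxic rises of SGK1, PKIB, CST1, SNAI2 and TIPARP given above.

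**Figure D5:**
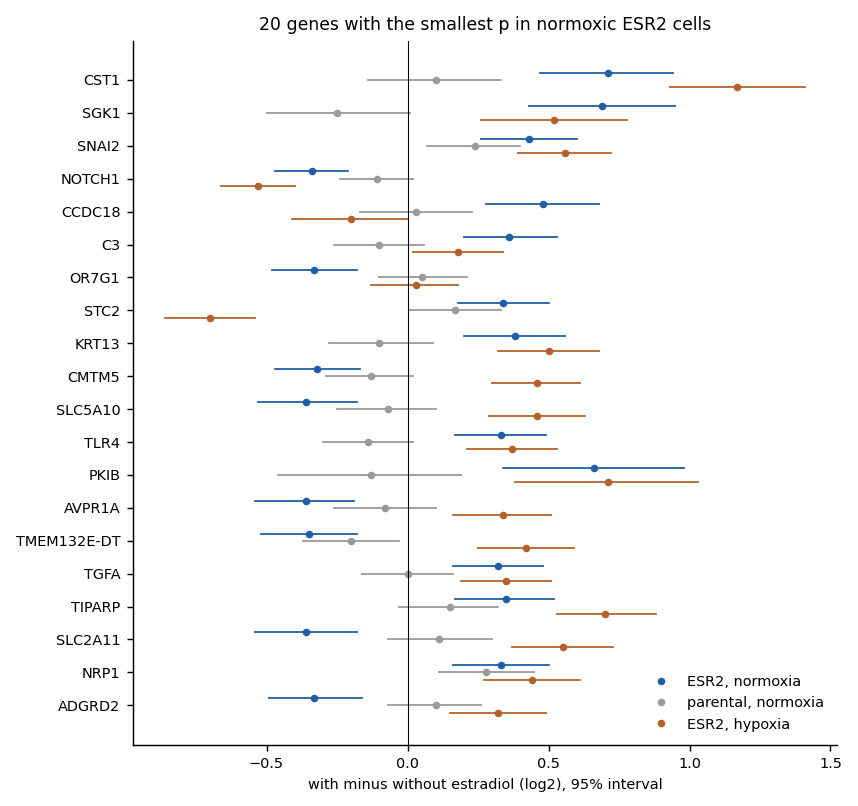
Difference with estradiol (log2, points, with 95% intervals of limma) in normoxic ESR2 cells (blue), normoxic parental cells (grey) and hypoxic ESR2 cells (brown) for the 20 genes with the smallest p in normoxic ESR2 cells, which fixes the place of the blue points. SGK1, PKIB and CST1 lie to the right of 0 in both ESR2 settings, and STC2 lies on opposite sides.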

How the data were processed

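Total RNA of HCT116 cells was hybridised to Affymetrix arrays, with 24 arrays in 8 groups of 3. The deposited values are log2 signals per probe set, made by the authors with RMA in affy, per the submitters' processing notes, with versions not given in the sources used here. Of 49293 probe sets that are not controls, 45253 could be named by 1 symbol through GEO's annotation of the platform, and those with several (1327) or none (2713) were left unnamed. Each of 18239 genes is represented by its brightest probe set over all arrays, with no filter on dim genes. Groups come from the labels.

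In R 4.3.3, limma 3.58.1 fitted a mean per group to every gene over the 24 arrays, with 16 residual degrees of freedom, and eBayes was used without a trend or robust prior. P-values were adjusted by Benjamini-Hochberg over all genes, with a threshold of 0.05; errors are limma's SE for differences and the SD for group means. The script was tested on simulated data. Figures were drawn with matplotlib 3.10.9, and promoters read with Python 3.11.15.

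The members, lists and comparisons were chosen with earlier results of these data known. The rule named, per comparison, the largest rises and falls past the threshold, up to 4 members of each list by p, all receptors and partners, MYC, HIF1A and cell markers; where no gene passed, 20 genes with the smallest p were named after their values were seen, and TFF1, CTSD, XBP1, CCND1 and others of the estrogen list were named as standard targets. Alternatives were other normalizations, probe set rules, filters, priors, weights, covariates, and arrays left out.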

Additional observations from a re-analysis of the deposited data

Results flagged for a closer look

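The difference with estradiol in ESR2 cells itself differed between normoxia and hypoxia, by the limma interaction, for 7991 genes. The 5 largest positive interactions, in which the hypoxic cells were lower with estradiol and the normoxic cells differed little, were of ARID1B (3.22), a chromatin remodeller subunit, ZMIZ1 (2.90), GRB10 (2.82), KANK1 (2.74) and FHOD3 (2.73). In normoxia these genes differed by -0.13, 0.18, -0.06, 0.05 and -0.03. The 5 largest negative interactions were of ZNF789 (-1.90), IRF7 (-1.86), a factor of the interferon response, MAL2 (-1.69), AKR1B10 (-1.66) and CCNE2 (-1.64), cyclin E2.

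Among the 20 genes with the smallest p in normoxia, the interaction with oxygen passed for 11, beside 43.8% of all genes. The 20 were chosen by their difference in normoxia, which is a part of the interaction. The choice therefore favours both the count and the signs, and neither is a separate result. It was positive for CCDC18 (0.68) and STC2 (1.04). It was negative for CST1 (-0.46) and TIPARP (-0.36), both higher with estradiol at either oxygen level. It was also negative for genes that were lower with estradiol in normoxia, namely OR7G1 (-0.36), CMTM5 (-0.78), SLC5A10 (-0.82), AVPR1A (-0.70), TMEM132E-DT (-0.76), SLC2A11 (-0.91) and ADGRD2 (-0.65). The hypoxic arrays with estradiol have the high 3′ minus 5′ index given above (3.63 ± 0.28 against 2.06 ± 0.14, SD, n = 3 each). With the index as a covariate the count was 5839, with 2600 lower interactions in place of 4637.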

How the results depend on the processing

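The count of 0 genes for estradiol in normoxic ESR2 cells held under 8 of 19 alternatives. It was 1 with quantile normalization again, with arrays centred on their medians, with the intensity trend and robust prior (CST1 in each), with the mean of probe sets or every probe set (SGK1), and with only the groups compared (PKIB). It was 5 with array weights (4 higher, 1 lower) and 4 without the hypoxic ESR2 arrays with estradiol and parental replicate 2, an alternative chosen after seeing the data; the 2 others so chosen, without parental replicate 2 and over the 12 normoxic arrays, gave 0. Leaving out each of the 6 arrays gave 0 to 1. The replicate numbers did not pair the arrays: same-numbered arrays deviated with correlations of -0.11, -0.10 and -0.15, and 0 of 3 matched their own number best; a replicate block gave 1 gene (CST1). 5 genes were called under some alternative: CST1 under 8, SGK1 under 4, and AVPR1A, PKIB and SNAI2 under 2 each. Over the 19 alternatives the difference ranged from 0.57 to 0.76 for SGK1, 0.64 to 0.68 for PKIB, 0.37 to 0.48 for SNAI2 and -0.39 to -0.14 for AVPR1A, and over the 18 that kept CST1 from 0.53 to 0.81. For the fit of every probe set, these ranges take the brightest probe set of the gene. The SGK1 call in that fit was of another probe set, with a difference of 0.90.

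The count of 0 for the interaction with ESR2 became 1 with the mean of probe sets (SGK1), 29 with array weights (17 higher, 12 lower), 1 without the hypoxic ESR2 arrays with estradiol (SGK1, chosen after seeing the data; 0 with parental replicate 2 left out too) and 0 to 1 when each of 12 arrays was left out (LMO2 without ESR2 estradiol replicate 1); the replicate block gave 0. The 7991 genes of the interaction with oxygen became 16448 of 45253 with every probe set, a larger table; the other alternatives gave 5839 to 9048, 7819 with the replicate block. Medians of the 37 lists moved by more than the spread between replicates in 38 of 703 cases, and none reached 0.2 in size. Dim genes, near the floor of the array, are where differences are compressed most.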
